A study of Homo sapiens with 6 samples.

Results

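The genes described here are 10 members of the epidermal growth factor receptor (EGFR) system, picked by symbol from the counts table: the ligands EREG, AREG, HBEGF, TGFA and BTC, the receptors EGFR, ERBB2 and ERBB3, and the feedback genes ERRFI1 and PHLDA1. All 10 were found among the 23368 genes of the table. RNA had been sequenced from H2122, a human lung adenocarcinoma cell line. The cells had been transfected with LYCAT shRNA in 3 libraries and with control shRNA in 3 libraries, and were taken after 48 hours. LYCAT is an older name of LCLAT1, an acyltransferase of the endoplasmic reticulum and mitochondria-associated membranes. The labels give neither the shRNA sequences nor the number of hairpins used, nor whether the cultures behind the libraries were grown separately, so the p-values measure the spread between libraries, which may be technical.

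EGFR and its relatives ERBB2, ERBB3 and ERBB4 are receptor tyrosine kinases that pair up when a ligand binds. The ligands are made as membrane-bound precursors and are released by metalloproteases, so that a cell can stimulate itself and its neighbours. Activated receptors signal through RAS and the MAP kinases and through PI3-kinase, and this signalling induces both some of the ligand genes and genes that switch the receptors off, such as ERRFI1. In lung adenocarcinoma the receptors and the RAS branch are common sites of mutation, and AREG and EREG are known as genes that RAS-MAPK signalling induces.

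A run of ligand genes, EPGN (which is no member of the chosen set), EREG and AREG, lies on chromosome 4 with BTC beyond it, and all 4 genes were higher with LYCAT shRNA. The promoters of the first 3 are shown because they share a letter pattern. They were picked for printing after the motif matches were seen. The BTC window held none of the motifs as spelled below, and variants of the motifs were not searched. The sequences are the 250 bases before the start of the gene in RefSeq on GRCh38.p14, 5′ to 3′, at chr4:74308220-74308469 for EPGN, chr4:74364895-74365144 for EREG and chr4:74444886-74445135 for AREG, all on the plus strand. The capitals mark TATAAA in each, and in AREG also TGACGTCA (the cyclic AMP response element, CRE) and GGGCGG (a GC box, here as CCGCCC on the other strand).
EPGN: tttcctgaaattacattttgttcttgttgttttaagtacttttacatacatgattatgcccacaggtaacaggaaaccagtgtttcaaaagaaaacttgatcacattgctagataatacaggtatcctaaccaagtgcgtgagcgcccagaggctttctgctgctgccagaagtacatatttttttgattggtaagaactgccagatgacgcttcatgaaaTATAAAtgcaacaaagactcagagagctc
EREG: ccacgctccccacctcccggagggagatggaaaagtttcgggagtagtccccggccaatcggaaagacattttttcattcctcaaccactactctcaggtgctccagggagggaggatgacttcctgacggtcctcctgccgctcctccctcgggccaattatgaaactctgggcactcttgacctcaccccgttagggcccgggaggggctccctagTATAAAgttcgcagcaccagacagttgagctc
AREG: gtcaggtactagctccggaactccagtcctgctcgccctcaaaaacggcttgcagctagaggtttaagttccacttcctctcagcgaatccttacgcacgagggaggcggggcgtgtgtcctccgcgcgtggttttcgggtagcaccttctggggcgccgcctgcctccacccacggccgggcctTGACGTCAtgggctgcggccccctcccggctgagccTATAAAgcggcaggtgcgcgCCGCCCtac
TATAAA began 29 bases before the start in EPGN, 32 in EREG and 29 in AREG. On either strand, TATAAA stood in 10.7% of all 35116 RefSeq promoter windows of this length, TGACGTCA in 1.65%, GGGCGG in 42.6%, and the AP-1 motif TGANTCA in 6.57%. The set of RefSeq promoters used held windows for 9 of the 10 members, all but ERBB3, and for EPGN. These were 12 in all because TGFA and EGFR have an alternative start each. TATAAA was found in 4 of the 12 windows, the 3 printed and an alternative start of EGFR, TGACGTCA in 1 (AREG), TGANTCA in 2 (the same EGFR start and ERBB2) and GGGCGG in 6. No motif searched overlapped another in the 3 sequences printed. Which starts these cells used was not measured.

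The libraries held 3118946 to 4730453 counts with LYCAT shRNA and 4075367 to 4930079 with control shRNA. LCLAT1, the target, stood at 21.7 ± 2.45 CPM (counts scaled to the depth and composition of each library) with LYCAT shRNA and 61.1 ± 4.23 CPM with control shRNA (SD, n = 3 each; log2 fold change -1.50, edgeR adjusted p = 1.15e-18). All 10 epithelial markers were detected and tested. Their summed level was 1760 to 1840 CPM with LYCAT shRNA and 1990 to 2080 CPM with control shRNA. Of the 10, 0 were higher and 6 lower, where 9.81% of the 11097 tested genes were higher and 9.26% lower. The other 4, EPCAM, KRT19, CLDN7 and ELF3, did not pass, with log2 fold changes of -0.05, -0.08, -0.14 and 0.63. KRT7, KRT8 and KRT18 fell by 0.30, 0.43 and 0.23 on the log2 scale, and KRT8 and KRT18 did not pass without control libraries 1 and 2 (edgeR adjusted p = 0.0845 and 0.365). Of 17 markers of fibroblasts, endothelium and blood, 5 (PECAM1, CDH5, PTPRC, CD3E and LYZ) were at 0 in all libraries. Another 4 could be tested, of which 0 passed with edgeR as set here. COL1A1 and COL1A2 were followed through other fits and passed as lower in some. COL3A1 (log2 -2.31) and CD68 (log2 0.30) were not followed. The summed level of the 17 markers was 41.9, 25.2 and 36.0 CPM with LYCAT shRNA, and 95.4, 135 and 35.0 CPM with control shRNA. Most of it came from the collagen genes COL1A1 and COL1A2. COL1A1 stood at 25.9, 16.4 and 22.9 CPM with LYCAT shRNA, against 59.4, 82.7 and 28.3 CPM with control shRNA, and did not pass (log2 -1.37, edgeR adjusted p = 0.158). By limma-voom (adjusted p = 0.000168) and DESeq2 (0.0377) COL1A1 was lower past the threshold, as by edgeR without the robust option (8.37e-07) and without control library 3 (5.84e-11). COL1A2 stood at 5.53, 1.61 and 4.44 CPM with LYCAT shRNA, against 14.4, 23.9 and 0.985 CPM with control shRNA (log2 -1.72, edgeR adjusted p = 0.393). COL1A2 passed as lower with edgeR without the robust option (adjusted p = 0.0028) and without control library 3 (6.28e-08). Control libraries 1 and 2 had the highest sums of these, and calls of ligands, receptors and pathway genes that end without them are named below. Fewer cells of a type and less RNA per cell cannot be told apart in these bulk libraries.

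With LYCAT shRNA 4 of the 5 ligand genes rose, EGFR and ERBB2 showed no change past the test, and ERBB3 fell. EREG, TGFA, AREG and BTC were higher by 2.22-fold to 8.54-fold, PHLDA1 was higher by 1.63-fold, and ERBB3 was lower by 1.42-fold. HBEGF, EGFR, ERBB2 and ERRFI1 did not pass. Of the 10 members 5 rose and 1 fell, where 19.1% of the 11097 tested genes changed, 9.81% upward and 9.26% downward (edgeR quasi-likelihood test, Benjamini-Hochberg adjusted p under 0.05 over all tested genes). Of the members 4, all ligands, rose 2-fold or more, where 1.06% of all tested genes rose that far. In 7 of the 10 no library of one group reached into the range of the other, as in 32.8% of all tested genes. EREG exceeded the filter on low counts, 2.24 CPM, in all 3 LYCAT shRNA libraries and in 0 of the control libraries, and BTC in 3 LYCAT shRNA and 1 control library, so both were tested only because they were high with LYCAT shRNA. The other 8 members passed it in both groups; 3 of these rose and 1 fell. The median log2 fold change was 1.17 for the 5 ligands, 0.01 for the 3 receptors and 0.31 for the feedback pair, beside -0.01 for all tested genes. No test of a list was made, and the members were chosen with earlier results of these data known.

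**Figure D1:**
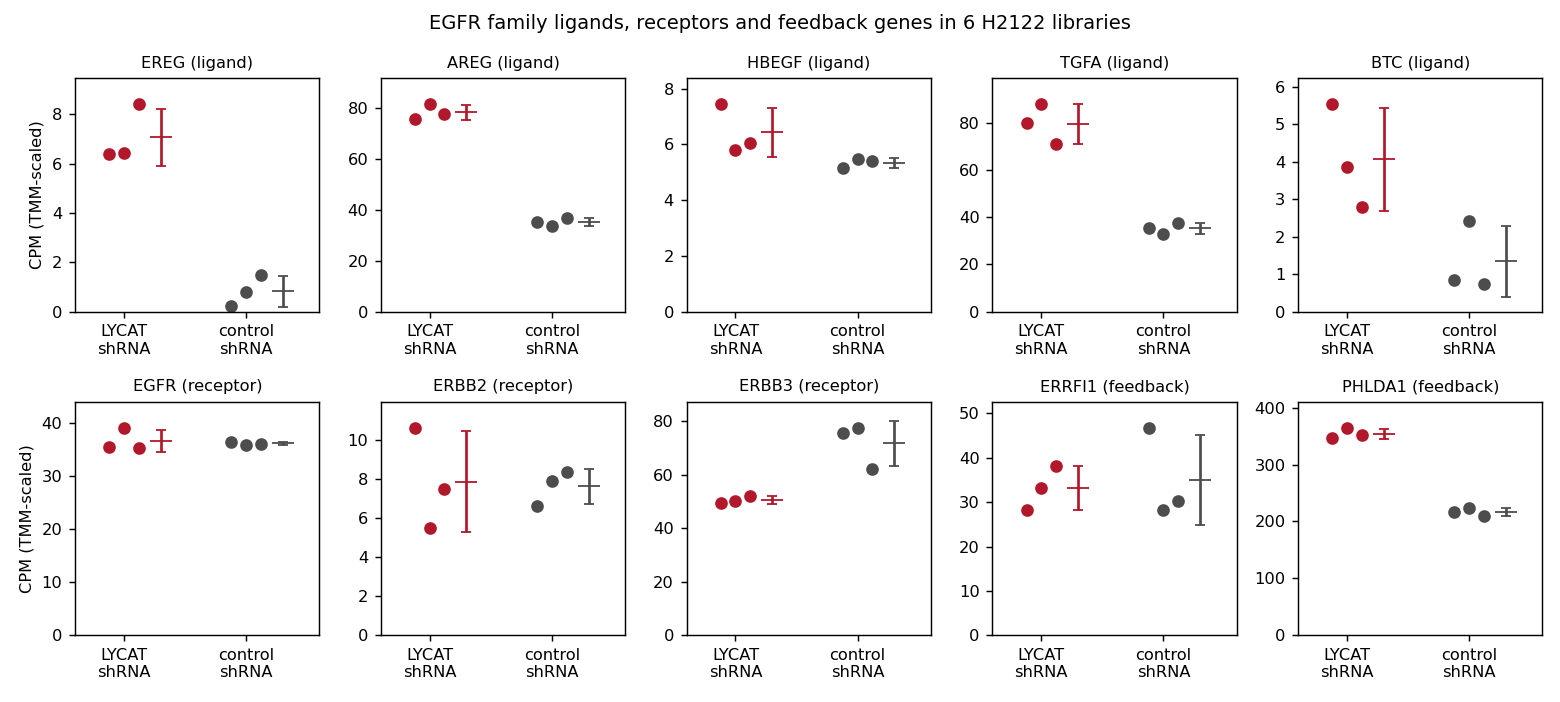
CPM of the 10 members in each of the 6 libraries (points), with the mean and SD of the 3 libraries of a group (bars); the y axes start at 0 and differ between panels. AREG stood at 75.7 to 81.6 CPM in the LYCAT shRNA libraries and 33.8 to 36.7 CPM in the controls, whereas the libraries overlapped for EGFR, ERBB2 and ERRFI1.

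AREG encodes amphiregulin, a ligand of EGFR. It stood at 75.7, 81.6 and 78.0 CPM with LYCAT shRNA, against 35.4, 33.8 and 36.7 CPM with control shRNA. The LYCAT shRNA libraries lay close together and every one of them was above every control library. The log2 fold change was 1.15 (SE 0.0956, edgeR adjusted p = 8.8e-17). In the older human builds AREG had a near-identical copy named AREGB, now a synonym of AREG in RefSeq. The table has no row of that name, so the AREG level is uncertain if reads were shared with a copy.

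TGFA encodes transforming growth factor alpha, another ligand of EGFR. Its level was 79.7, 87.7 and 71.0 CPM with LYCAT shRNA, against 35.2, 32.8 and 37.7 CPM with control shRNA, so the groups did not overlap. The log2 fold change was 1.17 (SE 0.0982, edgeR adjusted p = 1.32e-16). Its 95% interval, 0.97 to 1.37, covered nearly the same range as that of AREG, 0.96 to 1.34. Both genes also had nearly the same counts, 943 for AREG and 951 for TGFA summed over the LYCAT shRNA libraries and 481 and 479 over the controls.

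EREG encodes epiregulin, which binds EGFR and ERBB4. It had 30, 20 and 36 counts with LYCAT shRNA, against 1, 4 and 6 counts with control shRNA. In CPM this was 6.38, 6.45 and 8.41 with LYCAT shRNA, against 0.214, 0.811 and 1.48 with control shRNA. The groups did not overlap, and the log2 fold change was 3.09 (95% interval 2.28 to 3.91, edgeR adjusted p = 4.92e-09). The size of the fold rests on 11 control counts: it was log2 3.70 without control library 3, 2.64 without control library 1 and 2.24 without control libraries 1 and 2, and the call held each time.

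BTC encodes betacellulin, a ligand of EGFR and ERBB4. It had 26, 12 and 12 counts with LYCAT shRNA, against 4, 12 and 3 with control shRNA. In CPM this was 5.53, 3.87 and 2.80 with LYCAT shRNA, against 0.857, 2.43 and 0.739 with control shRNA, and the lowest LYCAT shRNA library lay just above the highest control. Its log2 fold change was 1.55 (SE 0.419, edgeR adjusted p = 0.00435). BTC did not pass without LYCAT shRNA library 1 (log2 1.22, edgeR adjusted p = 0.124) or with DESeq2 (adjusted p = 0.0537), and the fold rests on few counts: it was log2 2.32 without control library 2 and 2.43 without control libraries 1 and 2.

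HBEGF encodes heparin-binding EGF-like growth factor, which binds EGFR and ERBB4. Its level was 7.44, 5.80 and 6.07 CPM with LYCAT shRNA, against 5.14, 5.47 and 5.42 CPM with control shRNA. The libraries did not overlap, though the lowest LYCAT shRNA library and the highest control were close. The log2 fold change was 0.28 (95% interval -0.24 to 0.81, edgeR adjusted p = 0.509), which rests on 79 counts with LYCAT shRNA and 73 with control shRNA.

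The remaining ligands of the family and ERBB4 were taken from a list. EPGN, epigen, a ligand of EGFR, rose to 7.02, 11.0 and 8.64 CPM with LYCAT shRNA, against 3.64, 2.23 and 4.19 CPM with control shRNA. Its log2 fold change was 1.39 (SE 0.283, edgeR adjusted p = 0.000124), and 1.04 without control libraries 1 and 2, where it did not pass (edgeR adjusted p = 0.0779). EGF, the founding ligand of EGFR, fell to 9.99, 10 and 8.41 CPM with LYCAT shRNA, against 16.3, 12.6 and 12.8 CPM with control shRNA. The libraries of EGF did not overlap, but the call was marginal: its log2 fold change was -0.56 (edgeR adjusted p = 0.0318), and it did not pass when any LYCAT shRNA library or control library 1 was left out (edgeR adjusted p = 0.0568 to 0.197) or without control libraries 1 and 2 (0.345). The neuregulins bind ERBB4, and only some of them also bind ERBB3. NRG1 averaged 12.3 ± 1.52 CPM with LYCAT shRNA and 10.3 ± 0.959 CPM with control shRNA (SD, n = 3 each), and NRG4 9.87 ± 2.30 CPM with LYCAT shRNA and 10.8 ± 1.27 CPM with control shRNA, with log2 fold changes of 0.24 and -0.12 that did not pass (edgeR adjusted p = 0.432 and 0.749). ERBB4 had 3, 1 and 3 counts with LYCAT shRNA and 6, 9 and 1 with control shRNA, NRG2 had 1 count in each of 2 control libraries and 0 in the others, and NRG3 had 0 throughout, so these were not tested.

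**Figure D2:**
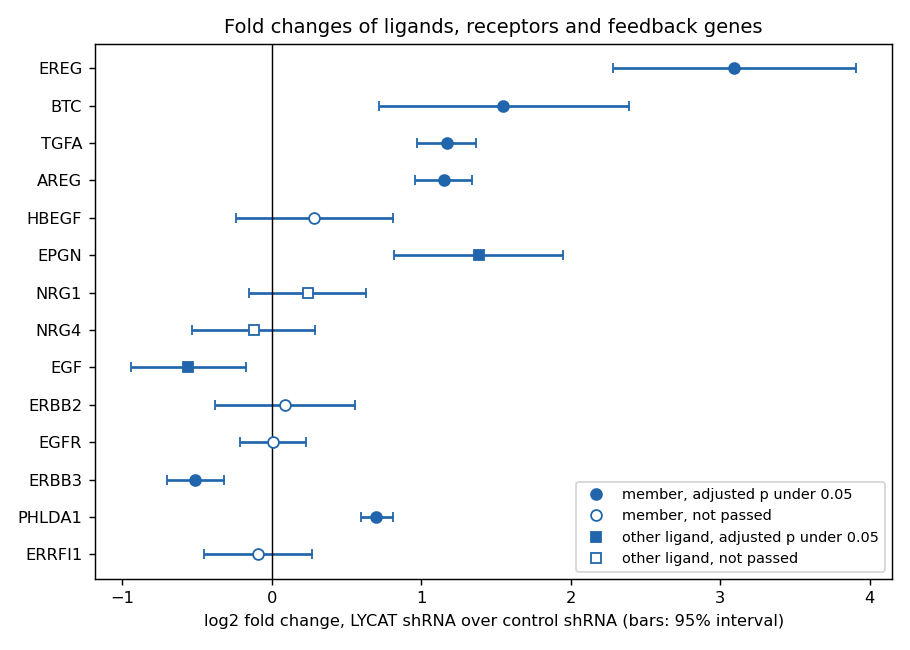
Log2 fold change of LYCAT shRNA over control shRNA (x axis) with its 95% interval for the 10 members (circles) and the 4 tested other ligands (squares), filled where the edgeR adjusted p was under 0.05. EREG had the highest value at 3.09, and the intervals of EGFR, ERBB2, HBEGF and ERRFI1 include 0.

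Among the receptors, EGFR binds the ligands above other than the neuregulins. EGFR stood at 35.5, 39.0 and 35.3 CPM with LYCAT shRNA, against 36.4, 35.9 and 36.0 CPM with control shRNA. The libraries overlapped and the log2 fold change was 0.01 (95% interval -0.21 to 0.23, edgeR adjusted p = 0.958), which spans 0.866-fold to 1.18-fold. ERBB2 has no known ligand of its own and serves as the partner of the others. It stood at 10.6, 5.48 and 7.47 CPM with LYCAT shRNA, against 6.64, 7.90 and 8.37 CPM with control shRNA, with the highest and the lowest library both in the LYCAT shRNA group. Its log2 fold change was 0.09 (95% interval -0.38 to 0.56, edgeR adjusted p = 0.847). In GENCODE 29 its exons share 571 bases with MIEN1 and 194 with PGAP3 on the opposite strand, and the sources do not state if reads were assigned by strand.

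ERBB3, which has an impaired kinase domain and is a receptor of some neuregulins, fell. It stood at 49.3, 50.3 and 52.1 CPM with LYCAT shRNA, against 75.7, 77.4 and 62.1 CPM with control shRNA. The LYCAT shRNA libraries lay within a narrow band and all controls lay above it, control library 3 nearest to it. The log2 fold change was -0.51 (SE 0.0932, edgeR adjusted p = 1.79e-05). Control libraries 1 and 2, where ERBB3 was highest, were also those with the higher fibroblast, endothelial and blood marker sums given above; the part of these in the result was not tested. Against control library 3 alone the log2 fold change was -0.29 and did not pass (edgeR adjusted p = 0.13).

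Of the feedback genes, PHLDA1, a protein with a pleckstrin homology-like domain whose gene ERK signalling is known to induce, rose. It stood at 346, 364 and 351 CPM with LYCAT shRNA, against 216, 223 and 210 CPM with control shRNA, and the spread within a group was small beside the gap between them. With a log2 fold change of 0.70 (SE 0.0541, edgeR adjusted p = 1.72e-18) it had the smallest p of the 10 members. ERRFI1, also called MIG6, binds the EGFR kinase domain and inhibits it. It stood at 28.3, 33.2 and 38.1 CPM with LYCAT shRNA, against 46.7, 28.2 and 30.3 CPM with control shRNA, so that control library 1 was above all others and the groups overlapped. Its log2 fold change was -0.09 (95% interval -0.45 to 0.27, edgeR adjusted p = 0.788), and 0.18 without control library 1. The exons of PHLDA1, ERRFI1 and EGFR overlap antisense genes in GENCODE 29 that have no row in the table.

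PHLDA1 and ERRFI1 thus differed in call although both are counted as feedback genes, and the difference between them was not tested. PHLDA2 and PHLDA3, the relatives of PHLDA1, both rose. PHLDA3, a repressor of AKT and a known target of p53, averaged 24.5 ± 2.57 CPM with LYCAT shRNA and 5.87 ± 0.440 CPM with control shRNA, with a log2 fold change of 2.05 (SE 0.187, edgeR adjusted p = 6.07e-15). PHLDA2 averaged 195 ± 5.51 CPM with LYCAT shRNA and 141 ± 6.26 CPM with control shRNA (SD, n = 3 each), and its log2 fold change was 0.47.

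Divided by the length of the exons, AREG was the most abundant of 7 EGFR ligands in both groups, at 47.6 ± 1.80 CPM per kb of exon with LYCAT shRNA and 21.4 ± 0.864 with control shRNA (SD, n = 3 each). TGFA followed with 16.0 ± 1.69 CPM per kb with LYCAT shRNA and 7.10 ± 0.488 with control shRNA. EPGN came next with LYCAT shRNA at 4.89 ± 1.09 CPM per kb, against 1.85 ± 0.557 with control shRNA, where it overlapped with HBEGF and EGF. EREG, which had the largest fold change of the ligands, was at 1.24 ± 0.201 CPM per kb with LYCAT shRNA, beside 1.44 ± 0.488 for BTC, from which it did not differ beyond the spread; with control shRNA it was the lowest, at 0.146 ± 0.111. The levels of the 7 summed to 73.0, 79.3 and 72.2 CPM per kb with LYCAT shRNA, against 35.3, 33.3 and 36.6 CPM per kb with control shRNA.

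AREG made up 63.6% ± 1.66 of the summed ligand level with LYCAT shRNA and 61.2% ± 0.513 with control shRNA, and TGFA 21.4% ± 1.36 with LYCAT shRNA and 20.2% ± 0.453 with control shRNA. EREG made up 1.66% ± 0.328 with LYCAT shRNA and 0.413% ± 0.30 with control shRNA. EGF made up 2.06% ± 0.167 with LYCAT shRNA and 6.47% ± 0.951 with control shRNA, and HBEGF 2.86% ± 0.480 with LYCAT shRNA and 5.07% ± 0.338 with control shRNA (SD, n = 3 each). For AREG, EREG, EGF and HBEGF the shares did not overlap between the groups. Those of AREG lay close, at 62.4% in the lowest LYCAT shRNA library and 61.8% in the highest control. The HBEGF share was lower although its own level was not, at 2.13 ± 0.291 CPM per kb with LYCAT shRNA and 1.77 ± 0.0583 with control shRNA, since the sum it is divided by was 74.9 ± 3.85 CPM per kb with LYCAT shRNA and 35.0 ± 1.67 with control shRNA. These shares are of length-scaled levels, for which no test was made.

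Among the receptors ERBB3 was the most abundant per length, at 5.59 ± 0.154 CPM per kb with LYCAT shRNA and 7.93 ± 0.930 with control shRNA. EGFR was at 2.92 ± 0.168 CPM per kb with LYCAT shRNA and 2.88 ± 0.0243 with control shRNA. ERBB2 was at 0.762 ± 0.252 CPM per kb with LYCAT shRNA and 0.740 ± 0.0866 with control shRNA. The feedback gene PHLDA1 was at 43.8 ± 1.15 CPM per kb with LYCAT shRNA and 26.8 ± 0.814 with control shRNA, and ERRFI1 at 7.93 ± 1.17 with LYCAT shRNA and 8.38 ± 2.43 with control shRNA (SD, n = 3 each). In order of level with LYCAT shRNA the members ran AREG, PHLDA1, TGFA, ERRFI1, ERBB3, EGFR, HBEGF, BTC, EREG and ERBB2; the libraries of BTC overlapped with those of HBEGF, EREG and ERBB2. With control shRNA the order was PHLDA1, AREG, ERRFI1, ERBB3, TGFA, EGFR, HBEGF, ERBB2, BTC and EREG, where ERRFI1, ERBB3 and TGFA overlapped, as did ERBB2 with BTC. The order depended in part on the length used. In the controls, by the longest transcript in place of all exons, AREG was at 28.5 ± 1.15 CPM per kb and PHLDA1 at 26.8 ± 0.814. By that length ERBB3 also stood above ERRFI1 in the controls, at 12.1 ± 1.42 and 11.3 ± 3.27 CPM per kb. With LYCAT shRNA ERBB2 was then at 1.59 ± 0.527 CPM per kb, beside 1.53 ± 0.249 for EREG and 1.44 ± 0.488 for BTC, and no longer last.

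**Figure D3:**
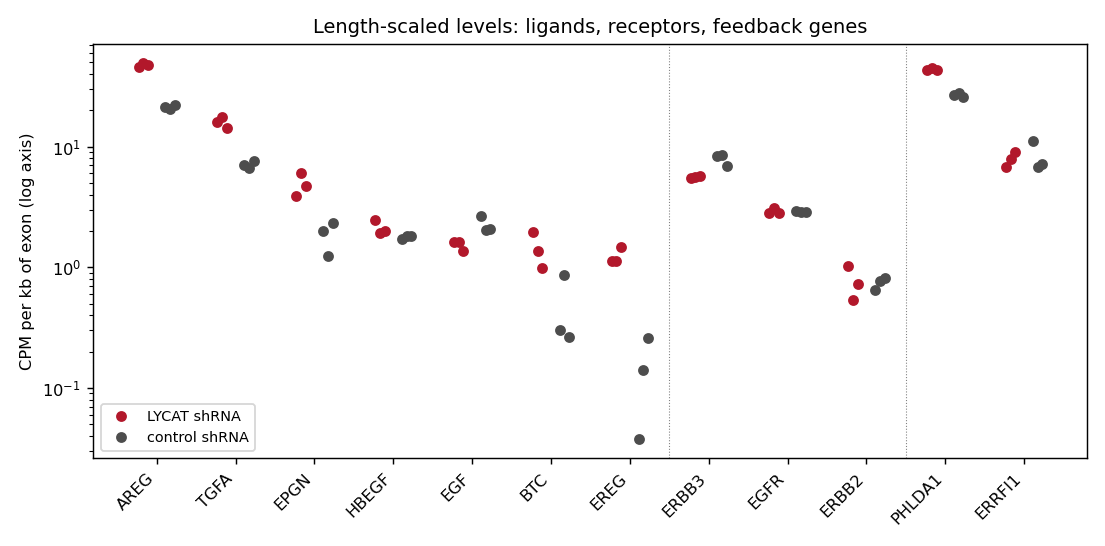
Level of 7 ligands, 3 receptors and the feedback genes in CPM per kb of exon (log axis), each point a library, with LYCAT shRNA left of control shRNA for each gene. AREG and TGFA lead the ligands in both groups, and EREG is lowest in the controls at 0.146 ± 0.111 CPM per kb (SD, n = 3).

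EPGN, EREG, AREG and BTC follow each other on chromosome 4, just beyond a cluster of chemokine genes. All 4 rose, where 9.81% of all tested genes did. EREG and BTC were tested only because they were high with LYCAT shRNA, so this share is no fair measure for them. EPGN was at 2.23 CPM in control library 2, just under the filter of 2.24 CPM. Of the 4 genes only AREG exceeded the filter in all libraries of both groups, so the share is no fair measure for EPGN either. A window of 15 protein-coding genes of the table to each side of the 4 ligand genes held 34 genes, of which 18 could be tested. It was chosen after the values were seen. In it 6 genes rose and 1 fell. Besides the ligands, the risers were the neutrophil chemokine genes IL8 and CXCL1. IL8 averaged 251 ± 7.96 CPM with LYCAT shRNA and 95.5 ± 8.46 CPM with control shRNA, and CXCL1 25.2 ± 1.90 CPM with LYCAT shRNA and 5.46 ± 0.769 CPM with control shRNA (SD, n = 3 each). CXCL3 and CXCL2 of the same cluster had log2 fold changes of 0.45 and 0.18 and did not pass (edgeR adjusted p = 0.0542 and 0.426). MTHFD2L, which lies between the chemokine and the ligand genes, stood at log2 0.36 and did not pass (edgeR adjusted p = 0.19). Of the 10 tested genes of the window that are neither chemokine genes before the ligands nor ligands, 0 rose, 1 fell and 9 did not pass. The gene that fell was THAP6 (log2 -1.15, edgeR adjusted p = 0.0146), which did not pass without LYCAT shRNA library 1 or 3 or control library 1 (edgeR adjusted p = 0.0661 to 0.108). Neighbouring genes are not independent, and no test of the run was made. TGFA and HBEGF lie on chromosomes 2 and 5.

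**Figure D4:**
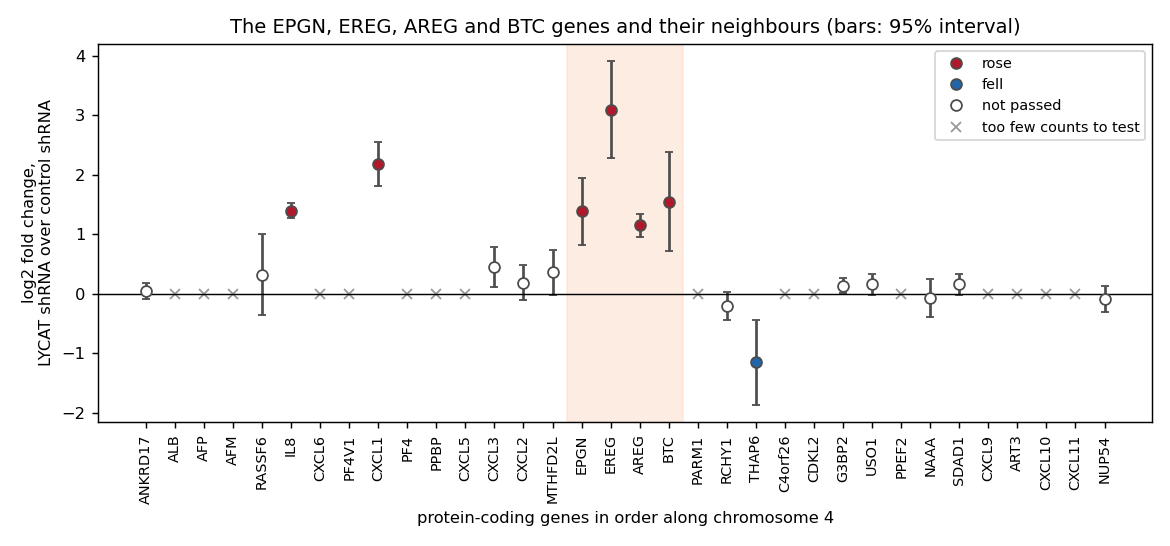
Log2 fold change of LYCAT shRNA over control shRNA (y axis) with its 95% interval for protein-coding genes in their order along chromosome 4 (RefSeq order; spacing is not to scale), with the ligand genes shaded and genes with too few counts drawn as crosses at 0. The 4 ligand genes, IL8 and CXCL1 stand above the rest, and THAP6 is the gene that fell.

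The rest of the pathway was described from lists of 109 other genes, of which 96 were tested. Of these 15 rose, 13 fell and 68 did not pass, so 29.2% were called, beside 19.1% of all tested genes. The median log2 fold change was 0.00 for the listed genes and -0.01 for all. The counts of each list below stand beside 9.81% of all tested genes that rose and 9.26% that fell. With DESeq2, 14 of the 25 passing genes that the naming rule picked did not pass. Calls over all genes also fell, from 2117 to 1193 with DESeq2 and to 1465 without LYCAT shRNA library 3. The count over the lists was 13 with DESeq2, 16 without LYCAT shRNA library 3 and 16 without control libraries 1 and 2. In that last fit RHBDF2, RHBDF1, CNIH4, ARAF, MAPK3, PIK3CA, TSG101, DUSP5 and DUSP6 of the genes named below did not pass (edgeR adjusted p = 0.0559 to 0.319).

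Of the genes that shed the ligands or carry their precursors, 8 were tested, and 1 rose, 3 fell and 4 did not pass (median log2 -0.03). The metalloprotease gene ADAM9 averaged 43.3 ± 0.90 CPM with LYCAT shRNA and 63.6 ± 5.79 CPM with control shRNA (SD, n = 3 each; log2 -0.55, edgeR adjusted p = 9.39e-06). RHBDF1 and RHBDF2 encode the iRhoms, which carry the sheddase ADAM17 to the surface, and had log2 fold changes of opposite sign, both past the test with edgeR but not with DESeq2 (adjusted p = 0.0701 for RHBDF1 and 0.0629 for RHBDF2). RHBDF2 averaged 31.8 ± 2.56 CPM with LYCAT shRNA and 23.4 ± 0.942 CPM with control shRNA (log2 0.43, edgeR adjusted p = 0.00871), and did not pass without LYCAT shRNA library 2 (edgeR adjusted p = 0.0521). RHBDF1 averaged 3.26 ± 0.50 CPM with LYCAT shRNA and 6.86 ± 2.08 CPM with control shRNA (log2 -1.04, edgeR adjusted p = 0.00835), and did not pass without LYCAT shRNA library 3 or control library 1 (edgeR adjusted p = 0.0515 and 0.107). CNIH4, a cargo receptor of the secretory pathway, fell by 0.15 on the log2 scale, and did not pass when any single LYCAT shRNA library or control library 1 or 3 was left out (edgeR adjusted p = 0.0604 to 0.135).

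Of the adaptors and the RAS-MAPK core, 1 of 19 tested genes rose, 3 fell and 15 did not pass (median log2 -0.01). NRAS averaged 34.3 ± 1.85 CPM with LYCAT shRNA and 54.8 ± 6.62 CPM with control shRNA (log2 -0.68, edgeR adjusted p = 7.76e-07). MAPK3, which encodes the kinase ERK1, averaged 20.7 ± 1.49 CPM with LYCAT shRNA and 30.0 ± 3.02 CPM with control shRNA (SD, n = 3 each; log2 -0.53). ARAF, a kinase that acts below RAS, rose by log2 0.38. It did not pass without LYCAT shRNA library 1 or 3 or control library 2 (edgeR adjusted p = 0.105 to 0.219). Of 12 genes of the PI3-kinase, PLC and STAT branch 1 fell and 11 did not pass (median log2 -0.05). That was PIK3CA, a catalytic subunit, at 2.96 ± 1.07 CPM with LYCAT shRNA and 5.43 ± 1.29 CPM with control shRNA. It did not pass without LYCAT shRNA library 1 or 3 or control library 1 or 3 (edgeR adjusted p = 0.0617 to 0.198).

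Genes of receptor ubiquitylation and endocytosis, the route by which activated EGFR is removed from the surface, rose in 2 of 18 tested members and fell in 2, and 14 did not pass (median log2 -0.04). SH3KBP1, an adaptor that links the ubiquitin ligase CBL to endocytosis, averaged 158 ± 9.05 CPM with LYCAT shRNA and 86.7 ± 3.10 CPM with control shRNA (SD, n = 3 each). Its log2 fold change of 0.87 (SE 0.0700, edgeR adjusted p = 1.7e-17) was the largest in this list. VPS4A, an ATPase of the sorting machinery, rose by log2 0.37, and EPN1, an endocytic adaptor, and TSG101, a sorting subunit, had log2 fold changes of -0.52 and -0.27. VPS4A did not pass without LYCAT shRNA library 3 or control library 3 (edgeR adjusted p = 0.0623 to 0.0974). EPN1 did not pass without LYCAT shRNA library 1 or 3 or control library 3 (0.062 to 0.0769), nor TSG101 without LYCAT shRNA library 1 or 2 or control library 1 or 3 (0.0665 to 0.175). Among 13 tested inhibitors of the receptors other than ERRFI1, 1 fell and 12 did not pass (median log2 -0.06). That was PTPRJ, a receptor phosphatase (log2 -0.49), which did not pass without LYCAT shRNA library 2 or 3 or control library 3 (edgeR adjusted p = 0.0901 to 0.172).

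Immediate early genes, which growth factors induce within minutes, rose in 6 of 11 tested members and fell in 1, and 4 did not pass (median log2 0.31). Over all tested genes 9.81% rose and 9.26% fell. IER3 averaged 695 ± 15.5 CPM with LYCAT shRNA and 550 ± 36.5 CPM with control shRNA (log2 0.34, edgeR adjusted p = 3.78e-08). MCL1, an inhibitor of apoptosis, averaged 527 ± 13.2 CPM with LYCAT shRNA and 425 ± 31.0 CPM with control shRNA. The AP-1 subunit genes JUN and JUNB moved oppositely, JUN to 62.7 ± 9.67 CPM with LYCAT shRNA, against 42.2 ± 1.68 CPM with control shRNA, and JUNB to 95.8 ± 6.21 CPM with LYCAT shRNA, against 136 ± 20.5 CPM with control shRNA (SD, n = 3 each). The brakes on ERK rose in 2 of 9 tested genes and fell in 1, with DUSP5 at log2 0.93, SPRY1 at 0.76 and DUSP6 at -0.33. None of these 3 passed throughout when single libraries were left out: DUSP5 did not without LYCAT shRNA library 3 or control library 2 (edgeR adjusted p = 0.0542 to 0.182), DUSP6 not without LYCAT shRNA library 2 or 3 or control library 1 (0.0789 to 0.322), and SPRY1 not without LYCAT shRNA library 1 or 2 or control library 1 or 3 (0.0658 to 0.126).

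**Figure D5:**
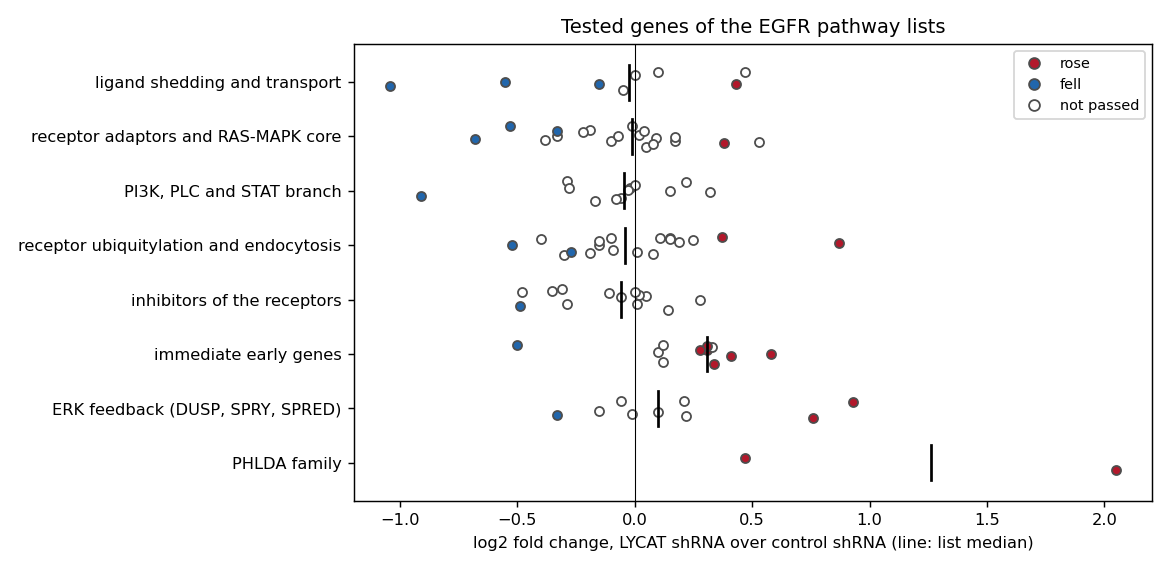
Log2 fold change of LYCAT shRNA over control shRNA (x axis) for each tested gene of the other EGFR pathway lists (rows), filled red where it rose, blue where it fell and open where it did not pass, with the list median as a line; the vertical position within a row is arbitrary. The medians lie between -0.06 and 0.31 except for the PHLDA pair, at 1.26.

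The genes whose levels most resembled those of PHLDA1 over the 6 libraries, among 9951 genes averaging 5 CPM or more, were TIMP1, an inhibitor of metalloproteases (Pearson r 0.9999 on log2 CPM), CDKN1A, the gene of the p21 brake on cell division (0.9974), and CSF3, a cytokine (0.9963). TIMP1 averaged 249 ± 5.19 CPM with LYCAT shRNA and 170 ± 3.56 CPM with control shRNA, CDKN1A 201 ± 2.15 CPM with LYCAT shRNA and 49.3 ± 1.36 CPM with control shRNA, and CSF3 324 ± 9.50 CPM with LYCAT shRNA and 128 ± 7.59 CPM with control shRNA (SD, n = 3 each). Those most like ERBB3 were CELF2, an RNA-binding protein (r 0.9955), CSNK1G3, a casein kinase (0.9872), and CLSTN1, a calsyntenin (0.9862), with log2 fold changes of -0.47, -0.16 and -0.26. CSNK1G3 did not pass (edgeR adjusted p = 0.191), CELF2 did not pass when any single LYCAT shRNA library or control library 1 or 2 was left out (0.0841 to 0.147), and CLSTN1 did not pass without LYCAT shRNA library 1 or control library 2 (edgeR adjusted p = 0.0515 to 0.11). The 6 points of each correlation fall into the groups of the study and share its libraries. So r describes the shared step between groups together with shared differences between libraries of a group, and carries no p. ERBB3, CELF2, CSNK1G3 and CLSTN1 were each lower in control library 3 than in control libraries 1 and 2.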

How the data were processed

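RNA of 6 H2122 libraries was compared, 3 with LYCAT shRNA and 3 with control shRNA. The authors deposited raw counts per gene in 1 table of 23368 genes, of which 7185 were at 0 in every library. The submitters' processing notes name bcl2fastq 2.17, BWA 0.7.15, Bowtie2 and featureCounts 1.5.1 and the builds hg19 and mm10; which aligner and build made the table is not stated there. The LYCAT shRNA columns are headed by a misspelling, read as LYCAT, with the replicate number.

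Genes were filtered with filterByExpr, which left 11097 genes with 99.77% of the counts, scaled with TMM and tested with edgeR 4.0.16 in R 4.3.3 (estimateDisp, glmQLFit with robust=TRUE, glmQLFTest, group as the only term), with Benjamini-Hochberg adjustment and a threshold of 0.05. The scripts were tested on simulated data. SE is the log2 fold change divided by the square root of F. The exact two-sided permutation test of 3 against 3 libraries cannot go below p = 0.1. Counts of 3 correspond to 0.608 to 0.967 CPM, and intervals cover no error that replicates share.

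Exon lengths came from GENCODE 29, promoters and gene order from RefSeq; 22029 table symbols matched RefSeq. The members and lists were chosen with earlier results of these data known. The text names all members, AREGB, LCLAT1, the other ligands and ERBB4, and from each other list the leading riser and faller by adjusted p, with up to 2 more that passed (the 2 most abundant where none did). It also names the 3 genes whose log2 CPM (prior count 2) best followed the leading riser and the leading faller among the members, over genes averaging 5 CPM or more. A gene that the rule names is not reported here. Alternatives were DESeq2's size factors, library totals, no filter, a stricter filter on mean CPM (5 or more), limma-voom (limma 3.58.1), DESeq2 1.42.0, a replicate block, robust=FALSE and leaving out each library. The fit without control libraries 1 and 2 was added after seeing the data. The chi-square of a library pair, divided by its degrees of freedom, was 1.37 to 2.58 within groups and 5.19 to 7.07 between them, so no library was a copy of another.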

Additional observations from a re-analysis of the deposited data

How the results depend on the processing

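AREG, TGFA, EREG and PHLDA1 kept their direction and their call under every alternative in which they were tested, and AREG ran from 1.12 to 1.18, TGFA from 1.11 to 1.25, EREG from 2.64 to 3.70 and PHLDA1 from 0.69 to 0.73 with 1 library left out. BTC ran from 1.22 to 2.32 and ERBB3 from -0.59 to -0.45. BTC had 1.58 with DESeq2, where it did not pass, and ERBB3 had -0.29 without control libraries 1 and 2. HBEGF ran from 0.16 to 0.34, EGFR from -0.02 to 0.04, ERBB2 from -0.21 to 0.26 and ERRFI1 from -0.23 to 0.18, never passing. Without control libraries 1 and 2 the values were -0.04 for ERBB2, 0.13 for ERRFI1 and, reversed from -1.72, 2.02 for COL1A2, and NRG4 ran from -0.33 to 0.04 with 1 library left out. The mean of at least 5 CPM removed EREG and BTC, and 4 members passed. Between 5 and 6 members passed with 1 library left out, between 16 and 27 other pathway genes, and between 1448 and 2228 of all genes. DESeq2 called 1193 genes and 13 pathway genes, with 1189 genes shared with edgeR, and the fit without control libraries 1 and 2 called 1129 and 16. That last fit assumes that the lone control library varies like the LYCAT shRNA ones. The causes of these lower counts were not tested. Among 25 pathway genes that passed and that the naming rule picked, 11 passed whichever library was left out, and 14 did not pass with DESeq2. Same-numbered libraries did not deviate together (correlations of 0.00509, -0.0645 and -0.0477), so the replicate numbers were not taken as pairs. With the replicate block 2046 genes, 6 members and 27 pathway genes passed, and the block changed no call among the members. Scaling by library totals turned 1089 higher and 1028 lower genes into 966 and 1127. The sum of AREG and AREGB was not run because the table has no AREGB row. Depth limits HBEGF, ERBB2, BTC and EREG, each with few counts.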

Other observations

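Spread between libraries was set beside the spread that counting alone gives, after the values were seen. The coefficient of variation of ERRFI1 was 29.1% among the control libraries, where counting gives 7.91%, and 14.7% among the LYCAT shRNA libraries, where counting gives 8.67%. ERBB2 varied by 33.1% among the LYCAT shRNA libraries, against 17.4% from counting, and by 11.7% among the controls, against 17%. ERBB3 varied by 2.75% among the LYCAT shRNA libraries, against 7.01% from counting, and by 11.7% among the controls, against 5.51%. AREG and PHLDA1 varied by 3.79% and 2.63% among the LYCAT shRNA libraries and by 4.02% and 3.04% among the controls, each below the value from counting. The causes were not tested.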
